A study of Mus musculus with 8 samples.

Results

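Mouse embryonic stem cell (ESC) lines without Zfp281 were compared with wild-type ESC lines on expression arrays. The comparison took the 3 lines labelled Zfp281 deficient, called null here (lines 7, 3.34 and 3.38), and the 3 lines labelled wild-type (lines 3, 3.2 and 3.3), so 6 of the 8 arrays of the series. The other 2 arrays were of heterozygous lines and entered only the estimate of the spread. Each line was measured on 1 Affymetrix mouse array from total RNA, so that n = 3 lines per genotype throughout. Per the study's legends, null line 7 and wild-type line 3 came from 1 litter, as did null line 3.38 and wild-type line 3.3, so the lines were not independent across genotypes. The targeted allele, made in CJ7 ESCs, carries a floxed neomycin resistance cassette in place of both Zfp281 exons. The study's legends also describe a null allele from which this cassette was removed, and the sample labels do not say which form each line carried. All lines were outgrowths of blastocysts from matings of heterozygous mice. The chimeras had been made with C57BL/6 host blastocysts. Every line was grown on primary mouse embryonic fibroblast feeders in serum with leukemia inhibitory factor, without further treatment, so the RNA of each sample could hold feeder RNA. Because these are bulk samples, fewer cells of a type and less RNA per cell cannot be told apart.

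Zfp281 is a Krüppel-like zinc finger protein that binds G-rich DNA and works with Nanog, Oct4 and Sox2 in ESCs. ESCs are the cultured counterpart of the inner cells of the blastocyst. They divide fast, with a short G1 phase, and depend on high output of ribosomes, proteins and nucleotides. On leaving that state they first resemble the postimplantation epiblast, an epithelium whose cells join through actomyosin, cadherins and integrins. The question addressed here was which functions other than the pluripotency program differed between lines with and without Zfp281.

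All values below are log2 values of robust multi-array average (RMA) expression, 1 probe set per gene. A difference of 1 on this scale is 2-fold. A gene was said to rise or fall in the null lines where limma gave it an adjusted p under 0.05 over all 18193 genes. Where 6 values are given, the first 3 are wild-type lines 3, 3.2 and 3.3 and the last 3 are null lines 7, 3.34 and 3.38. Where a gene was called detected on no array of 1 genotype, the fold is written as at least the measured one. Such wording concerns the undetected level alone and leaves out the error of the estimate.

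The targeted gene read 6.88, 7.93 and 6.72 across the controls and 3.64, 5.06 and 5.23 across the null lines (Zfp281, on the probe set used here). The genotypes did not overlap. The probe set was nonetheless called detected in 2 of the 3 null lines. ESC identity was checked with 10 markers, of which 9 were detected in every wild-type line and 9 in every null line. Their summed linear level was 2983 to 3960 in the wild-type lines and 5135 to 5868 in the null lines. Of 10 feeder fibroblast markers 6 were detected in every line of each genotype, with a summed level of 3251 to 5962 in the wild-type and 3059 to 3535 in the null lines, and none passed the test. No marker of mesoderm or neuroectoderm was detected in all lines of a genotype. Of 5 endoderm markers 2 were detected in every wild-type and 1 in every null line (summed level 86.3 to 171.8 and 83.7 to 102.9), of 5 trophectoderm markers 1 in every wild-type line, and of 4 macrophage and blood markers 2 (Csf1r and Adgre1) in every line of both genotypes. On the array's control probes for Gapdh and β-actin, the 3′ end exceeded the 5′ end, a measure of RNA length, by 4.86, 4.75 and 4.23 in the wild-type and 2.68, 3.71 and 3.51 in the null lines (means 4.61 ± 0.338 and 3.30 ± 0.546, SD, n = 3; two-sided exact permutation p = 0.1, as low as such a design can go). This measure moved with genotype, and its part in the differences below was not tested apart from a fit that holds it as a covariate.

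Loss of Zfp281 went with 126 genes that rose and 80 that fell, or 0.693% and 0.44% of the genes tested. Among the 5202 genes with a mean over 6 these shares were 1.52% up and 1.04% down. A difference of over 2-fold was seen for 250 genes in the upward direction (1.37%) and 200 in the downward direction (1.1%), and 121 genes passed both criteria. All 3 null lines lay above all 3 wild-type lines for 11.1% of genes and below them for 11.2%. Each of the 206 genes that passed the test was among these. Of the 5202 genes with a mean over 6, 18.5% lay wholly higher and 15.8% wholly lower in the null lines. Of the genes that passed, 186 were detected on all arrays of 1 genotype or both, and 4 of the 206 on none. The number of calls rested on single lines. With wild-type line 3 omitted 2 genes passed (2 of them among the 206). With wild-type line 3.2 omitted 4 passed (2 among the 206), and with null line 7 omitted 3 passed (3 among the 206). All 206 kept their direction in each of these fits, which was fixed in advance because their genotypes did not overlap. On the 4 lines of the 2 litters alone, with litter as a block, 178 genes passed in limma, of which 48 were among the 206. Once the 3′ to 5′ measure entered the fit as a covariate, no gene passed in limma (462 had an unadjusted p under 0.05), and all 206 again kept their direction.

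**Figure D1:**
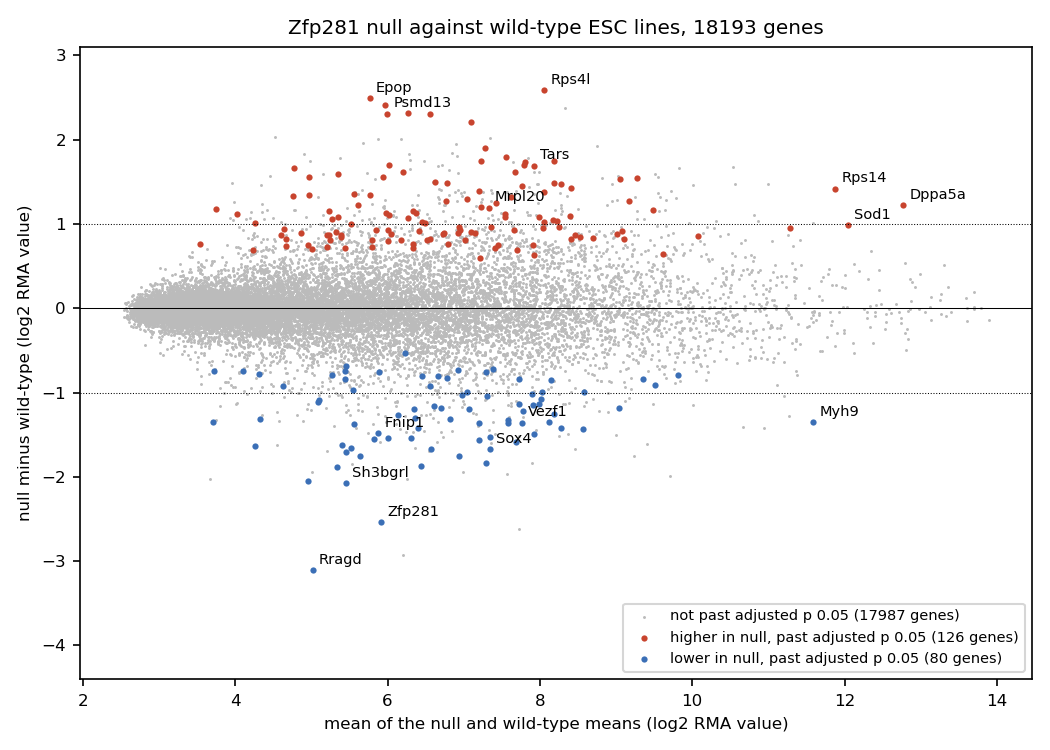
Difference between the null and wild-type means (log2, vertical axis) against the mean level of the 2 genotypes (log2 RMA value, horizontal axis) for 18193 genes, 1 point per gene. Colored points are the 126 genes that rose and the 80 that fell in the null lines, and dotted lines mark 2-fold. Among the called genes Rragd and Zfp281 stand lowest, while Rps14, Dppa5a, Sod1 and Myh9 are called at high levels.

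Rragd and Fnip1, both of lysosomal nutrient sensing, fell in the null lines. Rag GTPases sit on the lysosome and recruit the growth kinase complex mTORC1 when amino acids are present, and the folliculin complex (Flcn with Fnip1 or Fnip2) acts on RagC and RagD. Rragd, which encodes RagD, read 6.21, 6.92 and 6.58 in the wild-type and 3.47, 3.48 and 3.44 in the null lines. It fell by 3.10 (SE 0.17, adjusted p = 0.000844), the largest fall of all genes, and the null lines were nearly equal (SD 0.0213). Rragd was still called detected there, but below the median of each null array (3.88, 3.89 and 3.87), so this SD is that of low values. Its other probe sets, detected in no line, differed by -0.05 and -0.13. Fnip1 read 6.45, 6.82 and 6.58 against 5.16, 4.70 and 5.54, a 2.79-fold fall (adjusted p = 0.0444), and its other 2 probe sets gave -1.61 and -1.50.

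Other members of the same machinery did not pass the test and lay in both directions, and those given here are named after their values were seen. Flcn read 7.33, 7.34 and 7.61 in the wild-type and 6.63, 6.64 and 6.85 in the null lines (log2 difference -0.72, adjusted p = 0.0574). Rragc, for RagC, differed by -0.81 (adjusted p = 0.107) and Fnip2 by -0.63 (adjusted p = 0.129). For all 3 genes the 2 genotypes did not overlap. Rraga, Lamtor1 and Lamtor5, for other parts of the lysosomal platform, differed by 0.09, -0.26 and -0.02, and the platform subunits Lamtor2 and Lamtor4 were 0.95 and 0.49 higher (adjusted p = 0.0638 and 0.156), Lamtor4 being detected in no line. The lysosomal transcription factor gene Tfe3, whose product is held in the cytoplasm by folliculin and the Rag proteins, differed by -0.01, and its relative Mitf, whose values did not overlap, was 1.31 higher (adjusted p = 0.272). Over the 37 genes of amino acid sensing and mTORC1, 2 fell and 1 rose (Sec13, of the GATOR2 complex and the COPII coat, 2.41-fold). In the null lines 7 members were wholly lower and 7 wholly higher (18.9% each), against 11.2% and 11.1% over all genes. The median difference was 0.04 against -0.01 over all genes.

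The promoters of Rragd and Fnip1 are shown because both genes fell and hold the letters CCCCACCC or their reverse complement, a CACC-type run, which is in capitals. The windows run from 250 bases before to 50 after the RefSeq start (GRCm38.p6), written 5′ to 3′ along the gene. Rragd lies at chr4:32982748-32983047 on the plus strand and Fnip1 at chr11:54437929-54438228 on the plus strand.
Rragd: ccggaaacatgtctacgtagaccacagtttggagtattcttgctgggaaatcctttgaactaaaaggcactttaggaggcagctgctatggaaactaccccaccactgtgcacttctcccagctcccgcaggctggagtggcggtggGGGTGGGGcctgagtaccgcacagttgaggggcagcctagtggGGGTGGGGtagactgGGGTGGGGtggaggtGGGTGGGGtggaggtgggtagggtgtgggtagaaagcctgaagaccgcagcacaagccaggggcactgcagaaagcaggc
Fnip1: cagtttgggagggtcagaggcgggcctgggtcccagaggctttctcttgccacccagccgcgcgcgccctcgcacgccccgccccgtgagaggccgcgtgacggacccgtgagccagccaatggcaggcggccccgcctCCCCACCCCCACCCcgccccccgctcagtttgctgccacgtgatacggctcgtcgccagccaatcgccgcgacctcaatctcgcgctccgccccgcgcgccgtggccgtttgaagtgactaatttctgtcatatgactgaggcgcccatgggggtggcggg
The Rragd window held 4 matches, and the Fnip1 window 2. Of the 32 amino acid sensing and mTORC1 genes with a promoter 3 (9.38%) held the run, a lower share than over all genes of the array (14.4%), so it is no feature of the list. A match of letters is a description and not a binding site.

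Single genes of lysosomal and endosomal membranes also fell, while the medians of their whole lists differed little from that of all genes. Lamp2, a main lysosomal membrane protein, read 9.02, 9.03 and 9.18 against 8.17, 7.77 and 8.30, a fall of 1.00 (adjusted p = 0.037) with a gap of 0.72 between the genotypes. Stx7, a SNARE of late endosome fusion, fell 2.81-fold (adjusted p = 0.0467) and Pip4p2, a phosphoinositide phosphatase of these membranes, 2.57-fold (adjusted p = 0.0467). Mtmr4, a phosphatase of the endosomal lipid PI3P, fell by 1.20 on the log2 scale (adjusted p = 0.0467). Pip4p2 and Mtmr4 were on no list, and Stx7 was the 1 fall among 274 membrane traffic genes, of which 1 rose (median -0.02). The cholesterol carrier Npc2 fell 1.73-fold on 1 probe set, while its other detected probe set differed by 0.35. Of 61 lysosome and autophagy genes 2 fell and 1, the β-galactosidase gene Glb1, rose, with a median of -0.07. For members with a mean over 6 the median was -0.11 in both lists, against -0.02 over all such genes. The null mean was lower for 25 of 37 such lysosome and autophagy genes and 83 of 134 of membrane traffic, against 2729 of 5202.

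Actomyosin and adhesion genes made up a further part of the falls. Myh9 encodes the heavy chain of non-muscle myosin IIA and was among the brightest genes called, at 12.04, 12.55 and 12.20 in the wild-type and 10.50, 11.26 and 10.98 in the null lines. It fell 2.55-fold (SE 0.21 on the log2 scale, adjusted p = 0.037). Myh10, the IIB heavy chain, fell 2.69-fold (adjusted p = 0.0483) from 9.04, 9.16 and 8.78 to 7.11, 7.80 and 7.79. Null line 7 was lowest for both, and neither gene overlapped between genotypes. Falls were also measured for the actin-binding proteins palladin (Palld, 2.69-fold) and Afap1 (2.90-fold), for Shroom2 (2.30-fold), which places contractile actin at the cell apex, and for the cytoskeletal linker dystonin (Dst, 2.33-fold). The muscle-type light chain Mylpf (3.73-fold) and the Arp2/3 subunit Arpc1a (1.77-fold) rose. Over the 124 actin and myosin genes the counts were 3 down and 2 up, with a median of -0.01. These were 2.42% and 1.61%, against 0.44% and 0.693% over all genes. For the 50 members with a mean over 6 the median was -0.35 and 36 were lower, against -0.02 and 2729 of 5202 over all such genes. Actb itself differed by -0.01 on the probe set used and by 0.53 on its other detected one.

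At cell contacts, desmoplakin (Dsp), which anchors keratin to desmosomes, read 6.77, 7.40 and 7.07 in the wild-type and 5.61, 5.14 and 5.85 in the null lines, a fall of 1.54 (adjusted p = 0.0317). The immunoglobulin adhesion molecule Cadm1 fell 2.21-fold on its brightest probe set, with -1.10 and -1.12 on the other detected ones. Integrin αv (Itgav), a receptor for matrix, fell 1.80-fold from 8.60, 8.65 and 8.48 to 7.54, 7.83 and 7.81. The laminin chain Lamb1, of the basement membrane, fell 2.38-fold (adjusted p = 0.0384). Of 153 adhesion and junction genes 3 fell and 1 rose (Itgb7, detected in no wild-type line, at least 1.82-fold). The null lines were wholly lower for 25 members (16.3%) and wholly higher for 9 (5.88%), against 11.2% and 11.1% over all genes. For the 23 members with a mean over 6 the median was -0.32 and 19 were lower, against -0.02 and 2729 of 5202 over all such genes. Feeder RNA could carry Myh9, Itgav and Lamb1 as well, and the 28 feeder markers had a median of -0.49 in the null lines with 0 passing limma's test; the part of feeder RNA in these falls was not tested. Lamb1 was also the 1 call among 29 genes of primitive and definitive endoderm, whose median was -0.25, and -1.02 over the 6 members with a mean over 6, and the part of endoderm-like cells was not tested either.

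Of 170 small GTPase regulators and scaffolds 5 fell and 0 rose in limma, while Rcc1, the exchange factor of the GTPase Ran, which was on the nuclear transport list, rose 1.90-fold. Arhgap29, a GTPase-activating protein, went from 7.47, 7.30 and 7.45 to 5.24, 5.95 and 6.03, a 3.18-fold fall (adjusted p = 0.0301). Rap2c, of the Ras family, fell 2.03-fold. Sh3bgrl, a small thioredoxin-fold protein, fell 4.20-fold on the probe set used and by 1.62 and 0.37 on the other detected ones. The scaffold gene Sash1 read 7.39, 7.19 and 7.55 in the wild-type lines and was detected in no null line, at least a 3.66-fold fall (adjusted p = 0.0177). Over the 170 genes 30 (17.65%) were wholly lower and 10 (5.88%) wholly higher in the null lines, and the median was -0.08. Over all genes these shares were 11.2% and 11.1%. For the 48 members with a mean over 6 the median was -0.27 and 40 were lower, against -0.02 and 2729 of 5202 over all such genes.

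Receptors and signaling enzymes followed. The adhesion receptor latrophilin 2 (Adgrl2) read 7.84, 8.41 and 8.08 against 6.24, 6.74 and 6.76, a fall of 1.53 (adjusted p = 0.0301), and its second detected probe set gave -1.31. Flt1, a receptor for vascular endothelial growth factor, was detected in every wild-type and no null line, at least a 2.47-fold fall. The netrin receptor Unc5b, seen in 1 wild-type line only, was at least 1.68-fold lower. Kinase genes that fell were Nuak1 (2.40-fold), Map3k1 (1.79-fold) and Eef2k (2.13-fold), whose product slows peptide elongation through eEF2. Tab2, an adaptor of the TAK1 kinase, fell 2.00-fold. The membrane lipid genes Acsl4, which activates arachidonic acid, and Hsd17b11, a lipid droplet enzyme, fell 2.92-fold and 3.00-fold.

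**Figure D2:**
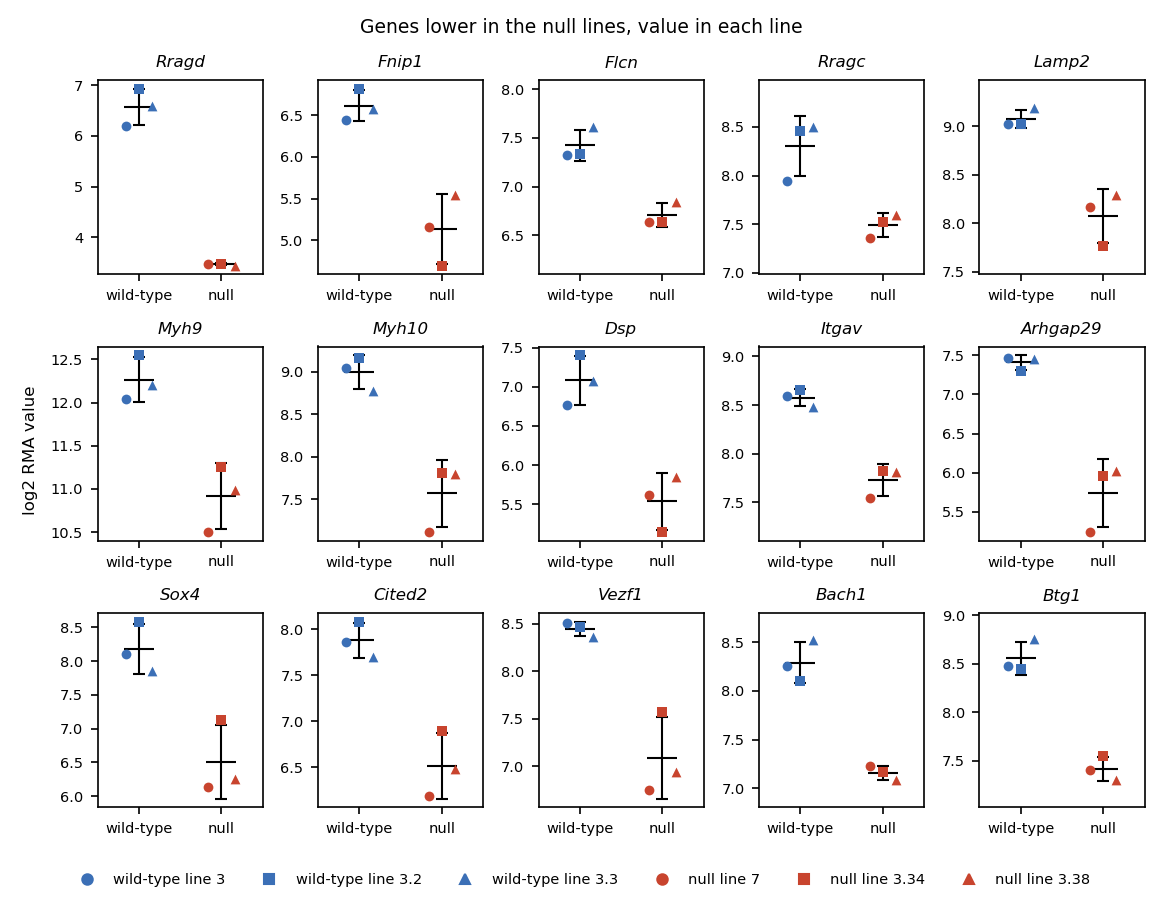
Log2 RMA value (vertical axis, scaled per gene) of 15 genes in each line, wild-type on the left and null on the right of each panel. Symbols are lines, and the bar and whiskers give the mean and SD of 3 lines. In every panel the 3 null lines lie below the 3 wild-type lines, as for Rragd at 3.44 to 3.48 against 6.21 to 6.92, and null line 7 is the lowest for Flcn, Rragc, Myh9, Myh10, Itgav, Arhgap29, Sox4, Cited2 and Vezf1.

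Several transcription factor genes fell that are not part of the ESC core. Sox4, an SRY-box factor of progenitor cells, read 8.10, 8.58 and 7.85 in the wild-type and 6.13, 7.13 and 6.26 in the null lines, a 3.19-fold fall (adjusted p = 0.0429). Its other detected probe set gave -0.64. Cited2, a transcriptional coregulator that binds CBP and p300, went from 7.86, 8.08 and 7.70 to 6.18, 6.90 and 6.48 (2.57-fold, adjusted p = 0.0385). Pou3f1, the epiblast and neural factor also called Oct6, fell 2.59-fold. Bach1, a heme-regulated repressor of antioxidant genes, read 8.26, 8.10 and 8.52 against 7.23, 7.16 and 7.08, with a fall of 1.13 (SE 0.14, adjusted p = 0.0301). The null lines were tight for Bach1 and spread over about 1 unit for Sox4, where line 3.34 was highest.

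Among zinc finger genes, Vezf1 and Patz1, which encode Krüppel-type proteins that also bind G-rich DNA, fell with Zfp281. Vezf1 read 8.51, 8.46 and 8.36 in the wild-type and 6.75, 7.57 and 6.94 in the null lines (2.56-fold, adjusted p = 0.0432). Patz1 fell 1.69-fold, from 7.45, 7.83 and 7.73 to 6.87, 7.08 and 6.81. The paralog Zfp148 differed in the other direction, at 6.24, 6.53 and 6.36 against 6.96, 6.66 and 7.21 (0.57, adjusted p = 0.113). Vezf1 and Patz1 stood on a short list with Zfp281 and Zfp148 and not on the larger one. Of the 405 genes on the zinc finger and ZBTB list 3 fell (Zfp281, Zfp946 and Zbtb18) and 2 rose: Zfp740, at least 1.91-fold, and Zfp57, 2.81-fold, which maintains methylation of imprinted regions. The 38 imprinted genes held none that passed limma's test, with a median of -0.21 and 6 that were over 2-fold lower. Of these Plagl1, an imprinted zinc finger gene, read 6.76, 7.88 and 7.17 against 5.03, 4.62 and 6.08 (adjusted p = 0.11).

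Further regulators with single falls were the histone acetylation scaffold Jade2 (3.38-fold), Smchd1 (1.90-fold), a chromatin protein of the inactive X, the cohesin subunit Stag1 (1.77-fold) and the antiproliferative factor Btg1. Btg1 read 8.47, 8.44 and 8.75 in the wild-type and 7.40, 7.55 and 7.30 in the null lines, with the smallest SE of these (0.12) and a fall of 1.14. For Smchd1 the other detected probe set gave -0.20, and for Stag1 the other 4 gave 0.07, -0.74, -0.01 and -0.29. Dicer1, the microRNA processing nuclease, fell by 1.31 on 1 probe set while its other detected probe set differed by 0.21. Across all genes that fell, 32 had another detected probe set. In 28 of these all such probe sets were lower too, and the median over those 47 probe sets was -0.72. Of the 126 genes that rose, 18 had another detected probe set. In 14 of these all such probe sets were higher too, and the median over those 30 probe sets was 0.53.

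The promoter of Sox4 is given as the example of the letters CCCCTCCC or their reverse complement, in capitals, at chr13:28953650-28953949 on the minus strand in GRCm38.p6. It is shown because this G-rich run was common among the genes that fell.
Sox4: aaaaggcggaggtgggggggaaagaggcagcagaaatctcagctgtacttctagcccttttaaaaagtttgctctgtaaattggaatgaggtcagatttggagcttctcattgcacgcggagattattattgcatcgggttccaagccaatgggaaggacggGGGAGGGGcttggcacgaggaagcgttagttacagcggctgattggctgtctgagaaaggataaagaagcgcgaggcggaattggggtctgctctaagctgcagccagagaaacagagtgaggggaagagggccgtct
Of the 80 genes that fell 67 had a promoter in the RefSeq table, and 20 of them (29.9%) held this run in a 300-base window. The share was 17.6% over 14452 genes of the array with a promoter and 9.71% (10 of 103) among the genes that rose. The CACC-type run CCCCACCC was in 28.4%, 14.4% and 6.80% of the same 3 groups. The median GC content of the windows was 63.5% for genes that fell, 60.3% for genes that rose and 58.7% over all. Genes that rose thus had a higher GC content than all genes but lower shares of both runs. Among genes with a mean over 6 the GC content was 61.8%, and 19.5% and 14.9% held the G-rich and the CACC-type run. The part of base composition was not tested. Motifs were chosen with the results known. Rap2c, Patz1, Limd2, Nuak1 and Ankrd50 held both runs, which do not share all letters and were counted apart.

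In the other direction, genes that rose included those of protein synthesis, RNA and mitochondria. Threonyl-tRNA synthetase (Tars), which loads threonine onto its tRNA, read 7.03, 6.52 and 7.67 in the wild-type and 9.13, 8.43 and 8.74 in the null lines, a 3.23-fold rise (SE 0.29 on the log2 scale, adjusted p = 0.0452). Cars, for cysteine, went from 6.87, 6.49 and 6.50 to 8.04, 7.80 and 7.63 (2.30-fold, adjusted p = 0.0301). Sars, for serine, rose 2.25-fold, from 8.86, 8.70 and 9.15 to 10.45, 9.80 and 9.97. Mars1 and Lars rose 1.77-fold and 1.76-fold, and Yars, detected in no wild-type line, at least 1.76-fold.

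These 6 synthetases were the members that passed among 47 genes of tRNA charging and the amino acid response, none of which fell. The share that rose was 12.8%, against 0.693% over all genes, and the median of the list was 0.43. In the null lines 22 members (46.8%) were wholly higher and 3 (6.38%) wholly lower. These shares were 11.1% and 11.2% over all genes, and 18.5% and 15.8% over genes with a mean over 6. Null line 7 had the highest median over the members, 0.71 above the wild-type mean, and line 3.34 the lowest, 0.25. Atf4, the transcription factor of the amino acid response, had means of 9.61 ± 0.338 in the wild-type and 10.38 ± 0.333 in the null lines (SD, n = 3), a difference of 0.76 with overlapping genotypes (adjusted p = 0.113). Its known targets Asns, Chac1, Trib3 and Ddit3 differed by 0.56, 0.86, 0.35 and 0.52, and none passed. The other detected probe set of Asns differed by -0.01. Both of the next metabolic genes rose, the aspartate aminotransferase Got1 (3.37-fold) and the mitochondrial phosphoenolpyruvate carboxykinase Pck2, from 5.24, 5.00 and 5.25, where it was not detected, to 7.56, 6.87 and 6.18 (at least 3.26-fold).

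Promoters of this group are shown because Tars, Yars and Got1 rose and hold TGATGCAA or its reverse complement, the core letters of the amino acid response element, in capitals. In GRCm38.p6 they lie at chr15:11399609-11399908 on the minus strand for Tars, chr4:129189653-129189952 on the plus strand for Yars and chr19:43524556-43524855 on the minus strand for Got1.
Tars: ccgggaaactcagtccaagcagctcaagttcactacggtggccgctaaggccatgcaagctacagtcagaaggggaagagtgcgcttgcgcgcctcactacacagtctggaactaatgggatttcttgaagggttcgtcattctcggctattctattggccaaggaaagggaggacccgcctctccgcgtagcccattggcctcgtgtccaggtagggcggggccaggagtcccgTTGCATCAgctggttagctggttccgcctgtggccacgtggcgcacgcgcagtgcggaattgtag
Yars: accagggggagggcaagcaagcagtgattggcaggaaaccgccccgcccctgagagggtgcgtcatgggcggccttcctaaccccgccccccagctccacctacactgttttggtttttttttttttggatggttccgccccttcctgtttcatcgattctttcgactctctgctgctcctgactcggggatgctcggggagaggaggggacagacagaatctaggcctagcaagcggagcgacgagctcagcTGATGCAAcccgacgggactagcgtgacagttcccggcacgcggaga
Got1: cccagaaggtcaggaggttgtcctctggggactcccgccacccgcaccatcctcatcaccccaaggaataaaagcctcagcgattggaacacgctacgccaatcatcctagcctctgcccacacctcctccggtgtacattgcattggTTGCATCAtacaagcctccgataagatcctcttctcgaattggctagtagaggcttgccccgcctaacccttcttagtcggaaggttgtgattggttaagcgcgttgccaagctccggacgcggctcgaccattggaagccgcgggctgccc
Of the 37 tRNA charging and amino acid response genes with a promoter 10 (27.0%) held the letters, against 116 of 14452 genes (0.803%). The share was 3.88% (4 of 103) among all genes that rose and 2.99% (2 of 67) among those that fell. The fourth gene that rose and held them was Psmd13. As the list was drawn up from genes known for this response, its share is a property of the list and not of these cells.

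Translation factors and tRNA enzymes beside the synthetases rose as well. Subunits of initiation factor eIF3, which brings the small ribosomal subunit to mRNA, were Eif3k, at 8.22, 8.29 and 9.01 against 10.43, 9.95 and 9.78 (2.92-fold, adjusted p = 0.037), and Eif3d (2.88-fold, adjusted p = 0.037). Abcf1, an eIF2 partner, rose 2.12-fold, with a log2 difference of 0.34 on its other detected probe set. Enzymes that shape tRNA were Pop5 of RNase P (2.95-fold), the methyltransferase Trmt2a (1.89-fold), Yrdc, needed for the t6A base (1.85-fold), and Elac2, which trims the 3′ end (at least 1.65-fold). Trmt2a was detected in no line on the probe set used, and a second probe set that was detected gave 0.74. Of 62 translation factors 2 rose and 2 fell, with a median of 0.19.

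Ribosome assembly was the list with the most rises by count, and none of its members fell. Its share that rose (10.6%) was below those of the tRNA charging and amino acid response list (12.8%) and the ESC markers (13.6%). Nolc1, a chaperone of small nucleolar particles, read 6.93, 6.62 and 7.57 in the wild-type and 8.66, 8.28 and 8.53 in the null lines (2.73-fold, adjusted p = 0.0434), and its other detected probe sets gave 1.85 and 1.14. Wdr74 and Nop16, of the large subunit, rose 2.49-fold and 2.52-fold (adjusted p = 0.0301 for each). Emg1, which methylates 18S ribosomal RNA, rose 2.07-fold, Rrp12 at least 1.92-fold and Znrd1, a subunit of RNA polymerase I, 1.64-fold. With Lsg1, 7 of 66 members rose and 0 fell, against 0.693% and 0.44% over all genes, and the median was 0.42. In the null lines 34 members (51.5%) were wholly higher and 3 (4.55%) wholly lower. These shares were 11.1% and 11.2% over all genes, and 18.5% and 15.8% over genes with a mean over 6. Utp25, Nop9 and Tbl3, of the small subunit processome and not on the list, rose by 1.35, 0.81 and 1.01. Among 49 cytosolic ribosomal proteins only Rps4l and Rps14 passed, and the median was 0.13. Rps14 rose from 10.91, 10.91 and 11.69 to 12.93, 12.55 and 12.29, and cytosolic ribosomal protein genes have many processed copies that probe sets may share.

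**Figure D3:**
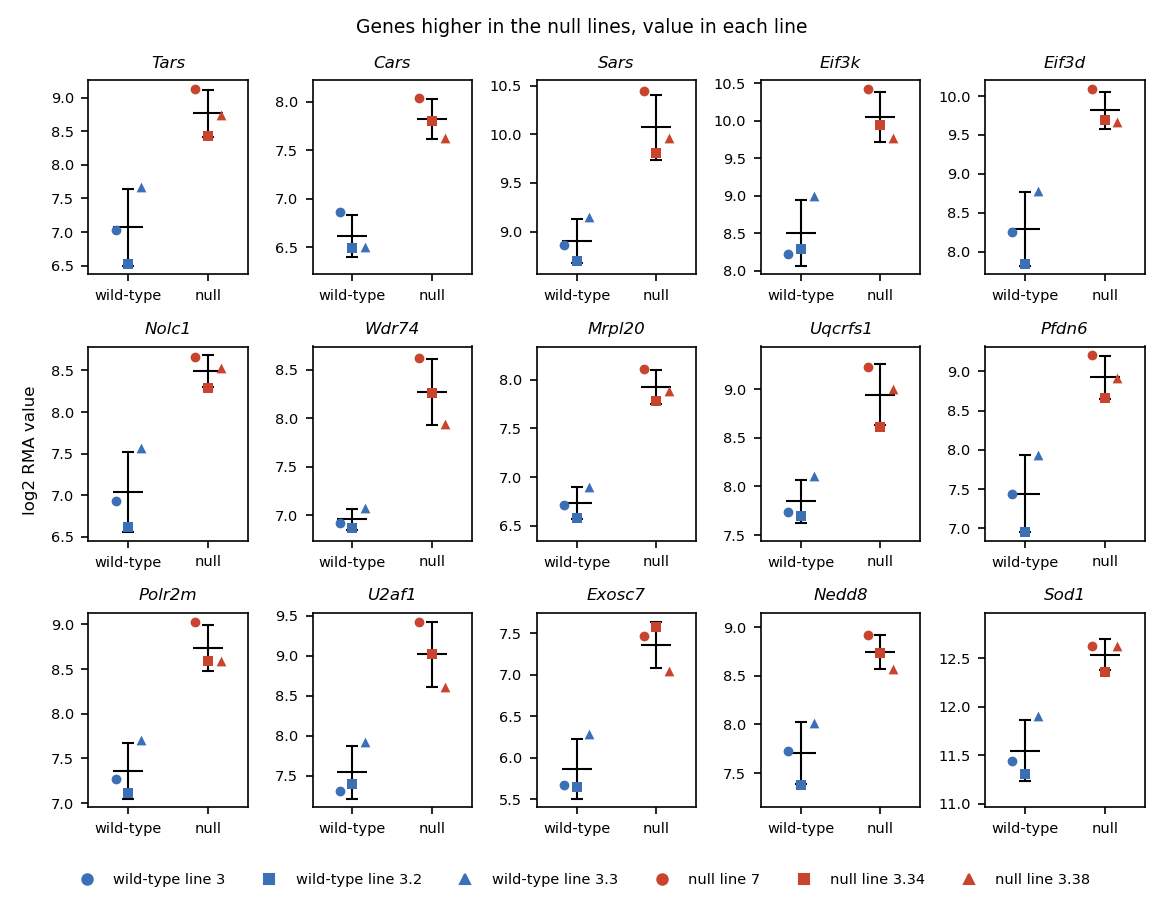
Log2 RMA value (vertical axis, scaled per gene) of 15 genes in each line, wild-type on the left and null on the right of each panel. Symbols are lines, and the bar and whiskers give the mean and SD of 3 lines. In every panel the 3 null lines lie above the 3 wild-type lines, and in all panels but that of Cars the wild-type line nearest to them is line 3.3, as for Eif3k at 9.01 against 9.78.

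Mitochondrial ribosome and respiratory chain genes lay higher in the null lines by small amounts. Of 76 mitochondrial ribosomal protein genes 47 (61.8%) were wholly higher and 1 (1.32%) wholly lower in the null lines. These shares were 11.1% and 11.2% over all genes, and 18.5% and 15.8% over genes with a mean over 6. The median was 0.44, and 4 rose (5.26%, against 0.693% over all genes). Mrpl20, of the large subunit, read 6.71, 6.58 and 6.90 against 8.11, 7.78 and 7.89, a rise of 1.20 (SE 0.15, adjusted p = 0.0301). Mrpl46, Mrps18a and Mrpl58 rose 1.86-fold, 1.80-fold and 1.70-fold. Dap3, a small subunit protein listed elsewhere, rose 1.95-fold, from 7.63, 7.72 and 7.94 to 8.91, 8.59 and 8.68. All 3 null lines had list medians between 0.33 and 0.46, above the wild-type lines at -0.14 to 0.11.

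Among 92 respiratory chain and ATP synthase subunits 38 (41.3%) were wholly higher and 1 (1.09%) wholly lower, with a median of 0.20. These shares were 11.1% and 11.2% over all genes, and 18.5% and 15.8% over genes with a mean over 6. Uqcrfs1, the Rieske protein of complex III, had means of 7.85 ± 0.224 and 8.94 ± 0.313 (SD, n = 3), with no overlap (2.14-fold, adjusted p = 0.0406). The ATP synthase subunit Atp5o rose 1.89-fold and Cox6b2, of complex IV, 1.85-fold. Around the chain, rises were measured for Ecsit, a complex I assembly factor (2.34-fold), Immt, which holds the cristae junctions (2.47-fold), the import proteins Chchd4 (1.79-fold) and Grpel1 (1.68-fold), and Pprc1 (1.86-fold), a coactivator of nuclear genes for mitochondria. Sod1, the copper-zinc superoxide dismutase, rose from 11.44, 11.31 and 11.90 to 12.62, 12.36 and 12.63 on the probe set used (1.98-fold), but its 3 other detected probe sets gave -0.72, 0.51 and 0.47. By contrast, of 39 glycolysis and hypoxia genes none passed limma's test and the median was -0.10. Pfkp, which commits sugar to glycolysis, had the smallest p there, at 9.23, 8.33 and 9.42 against 10.57, 10.30 and 11.11 (adjusted p = 0.0521).

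Protein folding and turnover genes rose in part. The proteasome list had 41 of 48 members with a higher null mean and a median of 0.49. In the null lines 25 members (52.1%) were wholly higher and 1 (2.08%) wholly lower. These shares were 11.1% and 11.2% over all genes, and 18.5% and 15.8% over genes with a mean over 6. Psmd13, of the regulatory lid, was the one member past the threshold (2.08%, against 0.693% of all genes that rose). Psmd13 rose 4.96-fold on the probe set used, and its other detected probe sets gave 1.46 and -0.49. Psmb4 and Psmb2, of the catalytic core and named after their values were seen, were 1.32 and 0.99 higher without passing (adjusted p = 0.0507 and 0.0531). Nedd8, a ubiquitin-like modifier of cullin ligases, read 7.73, 7.37 and 8.02 against 8.92, 8.74 and 8.57 (2.05-fold, adjusted p = 0.0422). Cops6, of the signalosome that removes Nedd8, rose 2.63-fold. The prefoldin subunit Pfdn6, which hands new actin and tubulin to their chaperonin, went from 7.43, 6.96 and 7.94 to 9.21, 8.66 and 8.92 (2.80-fold). In the endoplasmic reticulum the calcium-binding chaperone calreticulin (Calr) rose 1.82-fold, with 0.90 and 0.88 on its other detected probe sets, and Pdia6, a disulfide isomerase, 1.93-fold. Chaperone and heat shock genes as a list had a median of 0.04, with 2 of 94 up.

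Genes of transcription and RNA processing that rose included Polr2m (2.59-fold), Gtf2f1 of TFIIF (2.16-fold), Polr2j (1.62-fold) and Gtf3a, the 5S RNA factor TFIIIA (1.76-fold). No gene of the 118 in that list fell. U2af1, which reads the 3′ splice site, went from 7.31, 7.39 and 7.92 to 9.43, 9.02 and 8.61 (2.78-fold, adjusted p = 0.0372). Lsm2 of the U6 ring rose 3.02-fold and Snrnp25, of the minor spliceosome, at least 2.03-fold. The exosome subunits Exosc7 (2.82-fold) and Exosc3 (1.88-fold) rose as well, whereas Patl1, a decapping factor, fell 2.02-fold.

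Few genes of cell division and genome maintenance passed the test. Cdc45, of the replication helicase, read 5.14, 4.71 and 5.01 against 5.89, 5.68 and 5.92 (1.83-fold, adjusted p = 0.0467), the one call among 69 replication genes, whose median was 0.26 and of which 22 were wholly higher and 5 wholly lower in the null lines. Histone H2ax rose 2.41-fold, and Hmces, which shields abasic sites, 3.33-fold. Mitosis genes (155) had 1 rise, Cenpv, and 1 fall, Stag1, and a median of 0.00. Of 95 DNA repair genes none passed limma's test (median 0.02). Of 39 genes of nucleotide synthesis and one-carbon metabolism none passed either, and the median was 0.19. There 11 (28.2%) were wholly higher and 0 wholly lower in the null lines, against 11.1% and 11.2% over all genes. The purine synthesis enzymes Adsl and Gart had the smallest p there. Gart read 8.28, 7.17 and 8.67 in the wild-type and 9.74, 9.62 and 9.40 in the null lines (adjusted p = 0.0666), and Adsl was 0.89 higher (adjusted p = 0.0529).

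**Figure D4:**
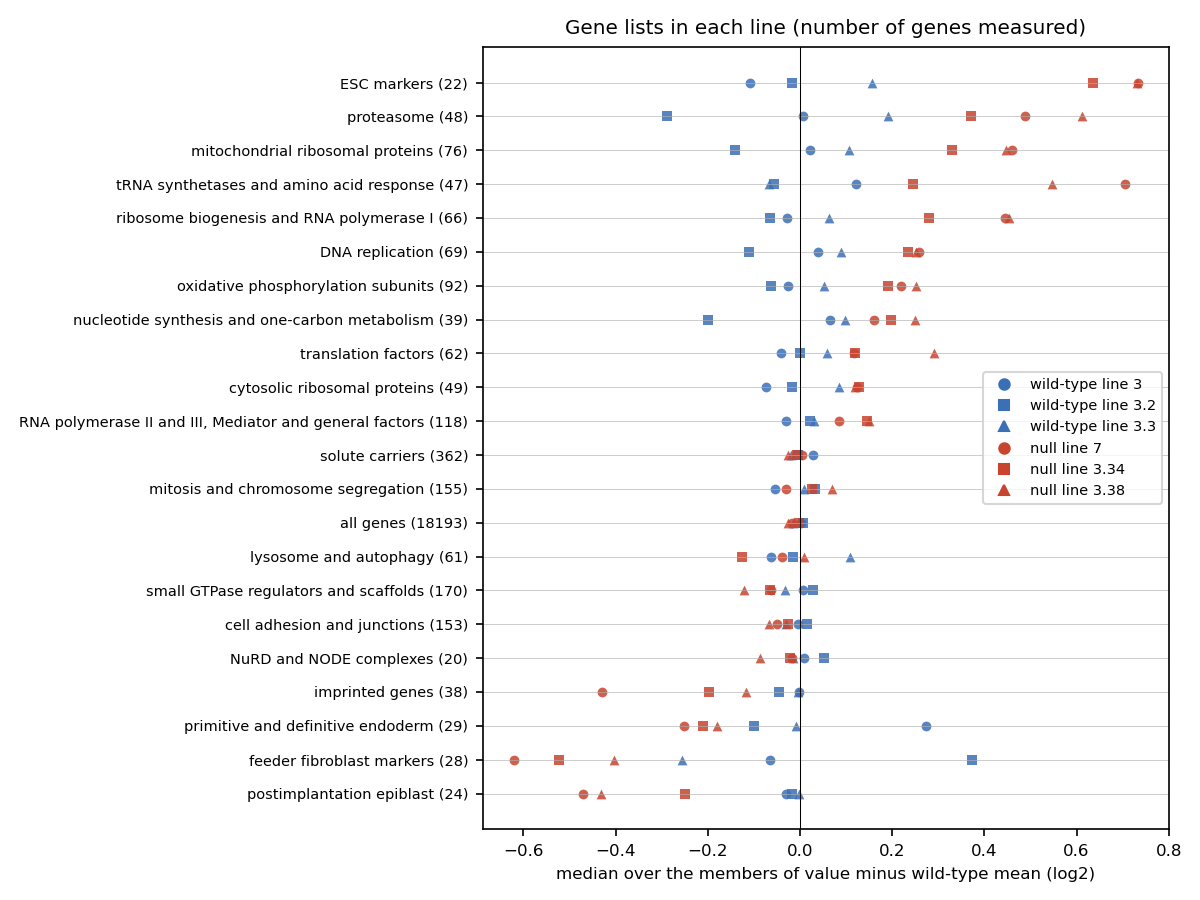
Median over the members of each gene list of the value minus the wild-type mean (log2, horizontal axis), 1 symbol per line, for 21 lists and for all genes, with the number of genes measured in parentheses. The null lines lie above the wild-type lines for the proteasome, the mitochondrial ribosome, tRNA charging, ribosome biogenesis and DNA replication, and below them for imprinted, feeder and epiblast genes. Solute carriers, mitosis genes and all genes stay within 0.07 of 0 in all 6 lines.

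Other genes were described because they were among the 20 largest rises or 20 largest falls. Lap3, a leucine aminopeptidase, read 7.20, 6.92 and 7.81 against 9.25, 8.63 and 9.29 (3.35-fold, adjusted p = 0.0385). The cilium gene Bbs2 and Zmynd19 were detected in every null and no wild-type line and rose at least 3.17-fold and 3.06-fold, although another detected probe set of Zmynd19 gave -0.11. Porcn, which acylates Wnt proteins, was tight in the null lines at 7.48, 7.29 and 7.51, against 4.97, 4.82 and 5.52. Epop, a partner of Polycomb complex PRC2, and Pmm1, a mannose phosphate enzyme, were spread more widely there, each highest in null line 7 at 8.05 and 8.79. Further rises were those of Rps4l (6.00-fold), Acp6 (5.33-fold), Ubxn1 (4.61-fold), the splicing helicase Dhx16 (3.46-fold), cyclin D3 (Ccnd3, 3.07-fold) and Nr0b1 (3.26-fold), a nuclear receptor of ESCs. On the other side Nrep fell from 5.91, 6.39 and 6.34 to 4.12, 4.94 and 4.69, with -1.01 on its second detected probe set. Gbp2, an interferon-inducible GTPase, and Car4, a membrane carbonic anhydrase, fell 3.70-fold and at least 4.14-fold, with -1.70 and -1.77 on their other detected probe sets. Ktn1, a kinesin-binding membrane protein, fell 2.96-fold, Plac8 3.38-fold, Pphln1 3.56-fold, the heparan sulfate sulfotransferase Hs6st2 3.26-fold, Fam13c 3.10-fold and Fndc3c1 at least 3.15-fold.

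Several lists held no call by limma. Of 362 solute carriers 38 were wholly higher and 39 wholly lower in the null lines, 11.1% and 11.2% being the shares over all genes, and the median was 0.00. The 20 genes of the NuRD and NODE repressor complexes had a median of -0.08. There the histone-binding subunit Rbbp7 had the smallest p, at 11.86, 11.99 and 11.96 against 11.30, 11.37 and 11.61 (adjusted p = 0.107). Of the 27 mesoderm and 35 neural genes none passed, with medians of 0.02 and -0.01. Gbx2, a member of the neural list, was furthest, at 4.14, 4.11 and 3.73 against 5.13, 6.79 and 5.55 (adjusted p = 0.0929). The study lists Gbx2 in its set of Oct4-activated genes, so its difference is not specific to neural genes. Unlike these, the 24 genes of the postimplantation epiblast held calls and had a median of -0.55, with 2 falls (Sox4 and Pou3f1) and 1 rise, Etv4, at least 2.19-fold.

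Some genes differed far more within a genotype than between genotypes. The ranges over the lines of a genotype had a median of 0.373 among 9273 genes detected in a null line and 0.371 among 8923 detected in a wild-type line. Efhc2, an EF-hand protein gene, spanned 5.44 among the null lines, with 7.16, 3.91 and 9.35, and 4.13 among the wild-type lines, with 4.57, 4.84 and 8.70. Pnma5 showed the same order of lines within the null genotype, at 7.44, 4.47 and 8.28. Slc40a1, the iron exporter ferroportin, read 4.79, 7.97 and 5.60 in the null lines and 6.78 to 7.51 in the wild-type lines. Pmaip1, the p53 target Noxa, was low in 1 line of each genotype, wild-type line 3 (4.77) and null line 3.34 (4.94), against 7.10 to 8.04 in the others.

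Lin28a, an RNA-binding protein that blocks let-7 maturation, had the largest range among wild-type lines. Its brighter probe set read 5.63, 10.90 and 10.58 in the wild-type lines and 5.46, 6.52 and 7.27 in the null lines, so wild-type line 3 fell among the null lines and the gene did not pass (adjusted p = 0.347). The other detected probe set of Lin28a read 7.83, 7.81 and 7.75 against 6.33, 5.77 and 5.99, a difference of -1.77 (SE 0.14, adjusted p = 0.0102 over all probe sets). The 2 probe sets thus placed wild-type line 3 differently, and the gene was named for its range.

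**Figure D5:**
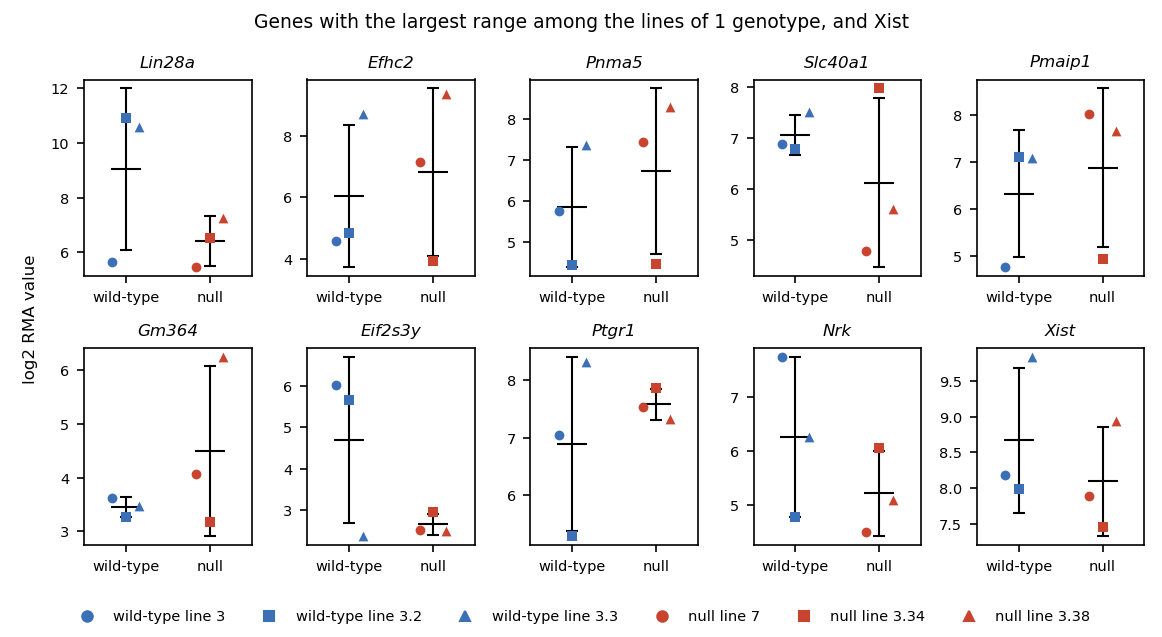
Log2 RMA value (vertical axis, scaled per gene) in each line of the 9 genes with the largest range among null or wild-type lines and of Xist, with the mean and SD of 3 lines as bar and whiskers. The lines of 1 genotype lie apart, as for Eif2s3y, where wild-type line 3 is at 6.02 but line 3.3 at 2.38.

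Sex-linked signal also differed among lines. The Y-linked gene Eif2s3y was detected in wild-type lines 3 and 3.2 (6.02 and 5.67) and not in wild-type line 3.3 (2.38) or in any null line (2.50 to 2.95). Kdm5d and Zfy2, also Y-linked, were detected in no line of either genotype on the probe sets used (3.46 to 3.91 and 2.72 to 3.22). Xist, the RNA that coats the inactive X, was detected in all 6 lines, at 7.99 to 9.83 in the wild-type and 7.45 to 8.94 in the null lines. The wild-type lines with Eif2s3y signal were those whose omission left few calls, as did that of null line 7, which had no such signal. Among 618 X-linked genes (RefSeq, GRCm38.p6) 7 fell (Acsl4, Fndc3c1, Hs6st2, Lamp2, Rap2c, Sh3bgrl and Shroom2) and 2 rose (Nr0b1 and Porcn), or 1.13% and 0.324% against 0.435% and 0.694% of all placed genes. Null lines were wholly lower for 65 X-linked genes and wholly higher for 27, against 2036 and 2025 of all 18145 placed genes. The part of sex chromosomes in these falls was not tested.

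Genes next to Zfp281 were checked because the null lines carry the targeted chromosome on both copies. Of the 10 measured genes on each side, 1 passed the test: Kif21b, a kinesin, fell 1.61-fold (adjusted p = 0.0465). The differences of the 20 neighbors ran from -0.69 to 1.42 with a median of -0.11, and 7 had genotypes that did not overlap. Nr5a2, a nuclear receptor of ESCs and the second measured gene after Zfp281, was highest, at 5.49, 6.77 and 5.62 against 7.25, 7.30 and 7.59 (adjusted p = 0.0672). The nearest gene before Zfp281, Kif14, was detected in no line.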

How the data were processed

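Expression was read from the deposited series table, where the authors gave log2 values after robust multi-array average (RMA) normalization of the 8 arrays. The submitters' processing notes also name limma. For each array the authors further deposited a linear signal and a detection p-value with its call, with scaling and versions not given in the sources used here. Calls served to say whether a gene was detected, and the signal served 1 alternative. Of 45101 probe sets 64 were controls, which were dropped, and 34945 carried a single gene in the platform annotation. Each of 18193 genes took the probe set whose mean was highest across the 8 arrays. limma 3.58.1 (R 4.3.3; lmFit and eBayes) estimated 1 mean per genotype from the 8 arrays, and the contrast was null minus wild-type, with Benjamini-Hochberg adjustment over all genes. A second fit covered all probe sets with a single gene. The code was tested on simulated data. The number of arrays limits the precision, and p-values measure the spread between lines, with the litters that lines shared across genotypes not in the main fit. Between 30.4% and 35.3% of probe sets were detected on the 6 arrays.

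Genes were named where they passed the test with a 2-fold difference (the 20 highest and 20 lowest described), where they passed and were members of one of 63 gene lists, where they had one of the 2 smallest p of a list without a call, or where they were among the 5 with the largest range among null or wild-type lines. Other genes that passed, and members given beside them, were chosen after their values were seen. The members, lists and motifs were chosen with earlier results of these data known. Lists are described by counts and medians, and 89 listed symbols were not matched. For a fold written as at least a value, each array of the dimmer genotype took whichever was higher, the gene's value or the dimmest detected probe set. In the genes so written the result equaled the measured fold, so it is no bound on the error. Promoters, chromosomes and gene order came from RefSeq (GRCm38.p6). Alternatives were the 6 arrays alone, the mean of probe sets, detected genes alone, quantile normalization, median centring, log2 signal, an intensity trend, the 3′ to 5′ covariate each line left out and, added later, the 4 lines of 2 litters with and without litter as a block.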

Additional observations from a re-analysis of the deposited data

How the results depend on the processing

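All 206 genes that passed kept their direction under every alternative in which they had a value. In the fits on fewer lines, those of the 2 litters included, this was fixed in advance, because the genotypes did not overlap for any of these genes. The fits on 6 arrays, on detected genes and with an intensity trend kept the same differences, so it was fixed there too. Direction could change only with the mean of probe sets, quantile normalization, median centring, the log2 signal and the covariate. When undetected genes were left out, 450 of 6986 genes passed adjusted p 0.05, and why this number was larger was not tested. Of those 6986 genes 1955 had an unadjusted p under 0.05 in limma, against 2980 of all 18193. The genes past adjusted p 0.05 numbered 0 with the log2 of the deposited signal (1937 at an unadjusted p under 0.05 in limma) or with the 3′ to 5′ covariate (462). They numbered 138 to 208 under the other 5 alternatives on 8 or 6 arrays and 2 to 208 when 1 line was left out, and leaving out wild-type line 3.3 gave 161 up and 47 down. The genes past 2-fold numbered 450, 248 with the mean of probe sets, 2660 with the log2 signal, and 330 to 617 with 1 line left out. The cause was not tested. The genes with non-overlapping lines numbered 4069, 2411 among detected genes, and 5267 to 6438 with 1 line left out, fewer lines having to stand apart. The Zfp281 log2 fold change was -2.54 on 6 arrays (adjusted p = 0.0601), -2.64 with the signal and -0.79 with the covariate, none past the threshold, and -2.83 to -2.04 with 1 line left out. On the 4 lines of 2 litters, alternatives chosen after seeing the data, 178 genes passed with the litter as a replicate block and 198 without it, 473 were past 2-fold, 8159 had lines that did not overlap, and the Zfp281 log2 fold change was -2.37, past the threshold in neither fit (adjusted p = 0.071 and 0.0829). The deviations of litter mates from their genotype means correlated at 0.097 and 0.038 over 18193 genes. The 3 prime minus 5 prime control difference between genotypes ranged from -1.52 to -1.004 without 1 line. Of 3276 values of the 206 genes under alternatives, 1915 no longer passed and 1361 did. None reversed, which was fixed in advance for the fits named above. Of 1008 list medians 161 moved by more than the spread between lines. The sources name no litter for null line 3.34 or wild-type line 3.2, so these were not paired.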
